A study of Mus musculus with 10 samples.

Results

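The genes described here mark the subsets of dendritic cells, and they were read in 10 mouse melanoma tumors by bulk RNA sequencing. The set holds 10 genes, given by name, out of the 55401 gene rows counted in each tumor, and all 10 passed the filter on low counts. Flt3 and Zbtb46 stand for conventional dendritic cells in general, Clec9a, Xcr1, Batf3 and Irf8 for type 1 cells, Cd209a and Irf4 for type 2 cells, Siglech for plasmacytoid cells and Fscn1 for mature cells. The tumors grew from B16F10, a melanoma cell line of C57BL/6 origin, injected under the skin of the left flank of C57BL/6J mice aged 9 to 12 weeks. The Mir25 KO group, 5 tumors, grew from cells in which Mir25 was edited, and the NTC group, 5 tumors, from cells with a non-targeting control guide. The study used both mixed and clonal KO cells, and the labels do not say which gave these tumors. Mice of both groups received the same therapy. GVAX, 1000000 irradiated B16 cells that secrete GM-CSF, was given into the opposite flank on days 1 and 4, and an antibody against PD-1 at 10 mg/kg on days 6, 9 and 12. Tumors carry the label of day 15, and no tumor of an untreated mouse was analysed here. The edit is in the tumor cells, so dendritic cells of the host kept their own Mir25.

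Dendritic cells take up antigen, carry it to lymph nodes and present it to T cells. Type 1 cells are known for cross-presentation of antigen from dead cells to CD8 T cells and depend on Batf3 and Irf8, whereas type 2 cells depend more on Irf4 and present mainly to CD4 T cells. Plasmacytoid cells make type I interferon, and a mature cell of any conventional subset turns on a shared program of migration and cytokine genes. GM-CSF, the product of the vaccine cells, is a growth factor of dendritic cells. In a bulk sample, fewer cells of a type and less RNA per cell cannot be told apart, and several of these genes are read in other cells too, such as Irf4 in plasma cells and activated T cells, Irf8 in B cells and macrophages, and Fscn1 in tumor and stromal cells.

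The edited gene could not be checked in these libraries, since the Mir25 row held 0 counts in all 10 tumors, NTC included. The RNA that the edit targets is the following, from RefSeq on GRCm38.p6 at chr5:138165332-138165353 on the minus strand, with the seed, bases 2 to 8, in capitals. It is shown because it is the only difference in design between the groups.
mmu-miR-25-3p: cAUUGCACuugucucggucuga

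Reads counted on genes ran from 23243707 to 28682130 in 9 tumors and came to 11896643 in NTC replicate 1. That library stood apart: the share of reads on no annotated gene was 42.9%, compared with 17.5% to 28.2% elsewhere, and 33193 genes had a count against 22192 to 25435. On 16204 autosomal genes with no count in the other 9 tumors, it had 0.956 counts per kb of exon. At that rate, 5.91 of its 13 Flt3 counts and 3.23 of its 13 Siglech counts would be of the same kind, and at most 15.6% of its counts on each of the other 8 genes. Its TMM factor was 0.628, against 0.968 to 1.11 in the other 9, which raises its scaled levels relative to counts over the library total. Its summed level of 12 macrophage and monocyte markers was 6811 CPM (counts per 1000000, scaled by TMM factors), against 491 to 2055 in NTC replicates 2 to 5 and 1541 to 8138 in KO tumors. The 7 melanoma cell markers summed to 11282 CPM there, while NTC replicates 2 to 5 had 18957 to 21329 CPM and KO tumors 11774 to 19339 CPM. The part of these differences in any result was not tested. The fold changes of the 10 genes are given with and without this tumor, as are those medians of lists that are printed.

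Per kb of exon, the scale on which levels of different genes are compared, Irf8 led with a mean of 22.1 CPM per kb over the 10 tumors. Fscn1 followed at 3.87, Batf3 at 2.25 and Clec9a at 1.49 CPM per kb. Zbtb46 at 1.05, Xcr1 at 1.05 and Irf4 at 0.990 CPM per kb lay within each other's spread between tumors. Cd209a at 0.769, Flt3 at 0.300 and Siglech at 0.239 CPM per kb were the lowest. Within groups the order differed. Clec9a had 2.34 ± 1.57 CPM per kb (SD, n = 5) in KO tumors and 0.637 ± 0.488 (SD, n = 5) in NTC tumors, where it was below the means of Zbtb46, Xcr1, Irf4 and Cd209a. Siglech rested on 5 to 34 counts per tumor and Cd209a on 3 to 47, so that single tumors of these genes are imprecise.

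**Figure D1:**
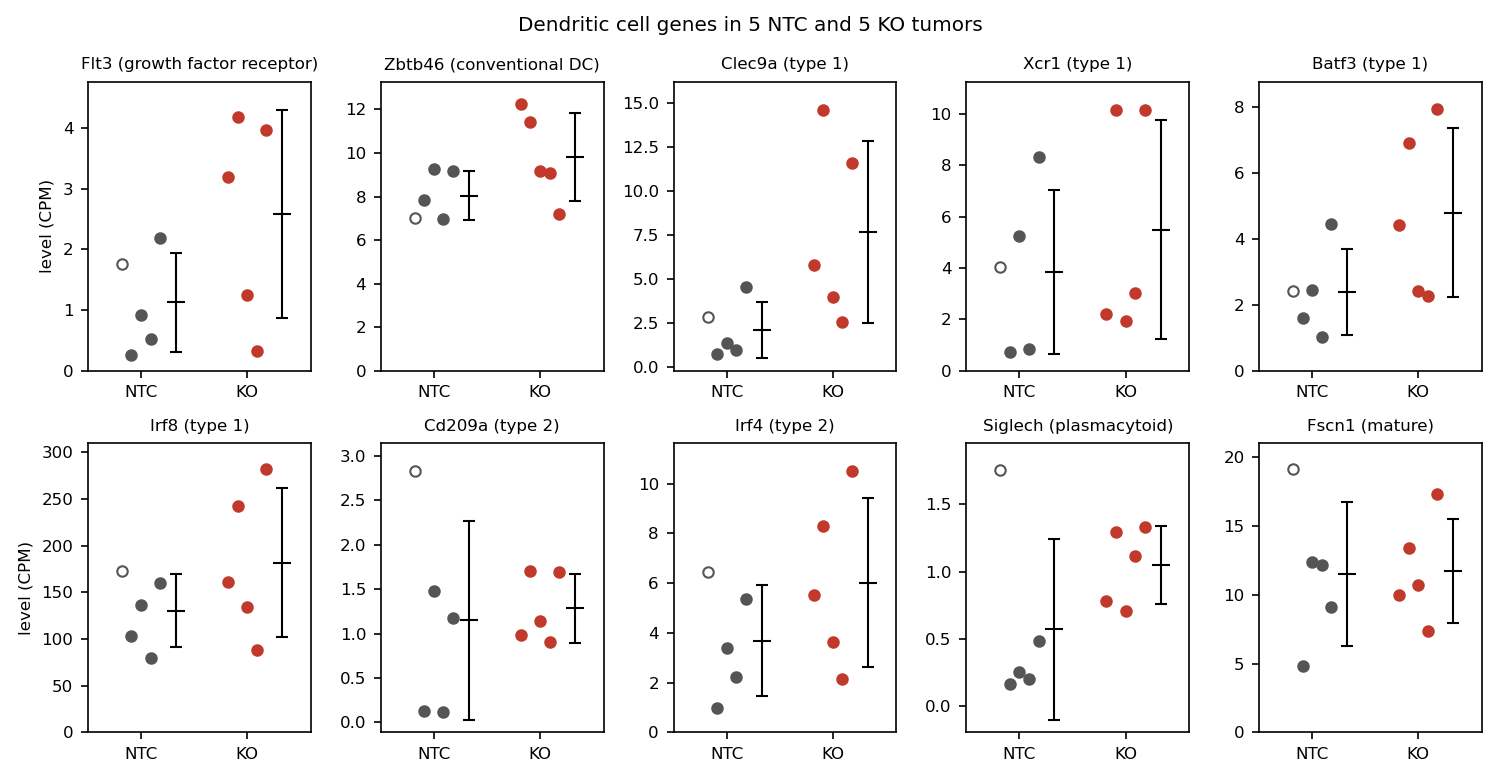
Level of each gene in CPM on a linear axis, 1 point per tumor, with NTC tumors in grey and KO tumors in red. The open circle is NTC replicate 1, and the bar beside each group is the mean with its SD over 5 tumors. In Clec9a 3 KO tumors are above every NTC tumor, and in Siglech, Cd209a and Fscn1 NTC replicate 1 is the highest of all 10 tumors on this scale.

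The first question the design poses is whether tumors of Mir25 KO cells held other levels of these genes than NTC tumors under the same therapy. By edgeR's quasi-likelihood test, with a Benjamini-Hochberg adjusted p under 0.05 and an absolute log2 fold change above 1, 0 of the 10 genes were called, where 0.019% of the 15821 genes tested were called. Their adjusted p-values ran from 0.379 to 0.982. All 10 log2 fold changes lay above 0, with a median of 0.62, and 51.3% of all genes tested did so, with a median of 0.01. An unadjusted p under 0.05 was reached by 1 of the 10, Clec9a, against 8.85% of all genes. DESeq2 on the same tumors also called 0 of 10, beside 0.607% of all genes. An unadjusted p under 0.05 was reached by 2 of 10 in DESeq2, beside 10.1% of all genes.

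Without NTC replicate 1, edgeR called 0 of 10, beside 0.106% of 16078 genes. All 10 fold changes again lay above 0, with a median of 0.87, beside 48.1% of all genes. Siglech and Clec9a had an unadjusted p under 0.05, and 12.0% of all genes had such a p and were higher in KO. DESeq2 on these 9 tumors, a fit added after the data were seen, called both of them, with adjusted p of 0.00488 for Siglech and 0.0268 for Clec9a. In that fit 3.99% of all genes were called, and 3.3% were called higher in KO.

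**Figure D2:**
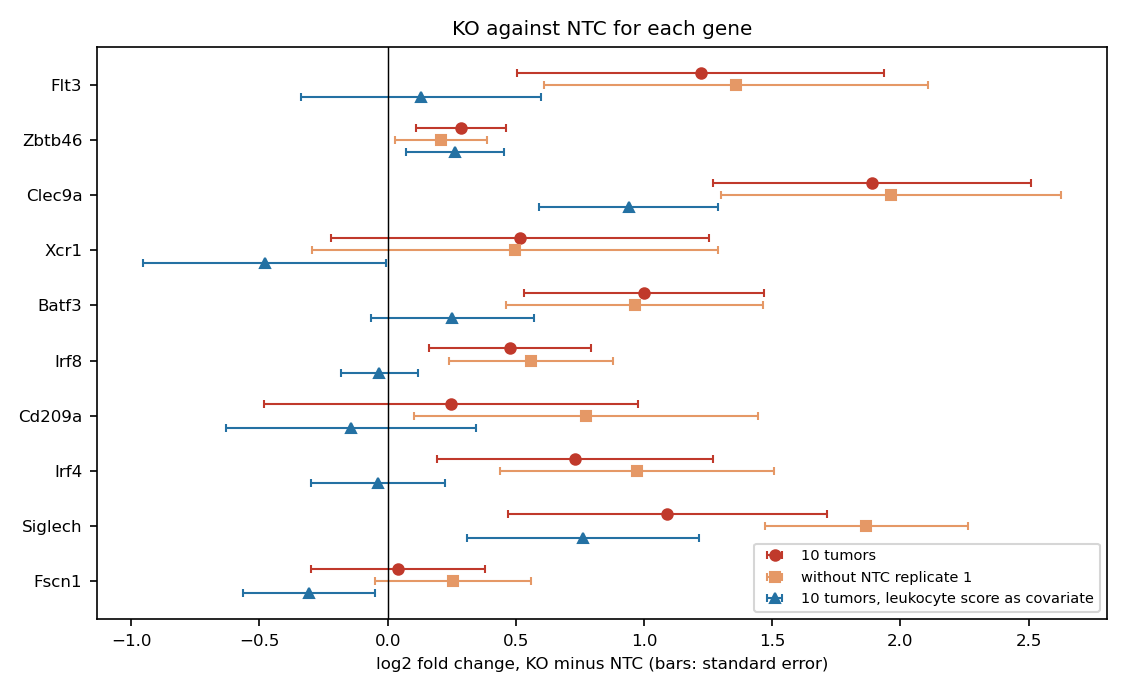
Log2 fold change of KO against NTC for each gene with its standard error, on a linear axis, from edgeR over 10 tumors, without NTC replicate 1, and over 10 tumors with a pan-leukocyte score as a covariate. Points of the first 2 fits lie above 0 for all 10 genes, and 5 of the 10 lie below 0 with the covariate.

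Flt3 (chr5:147330741-147400489, GRCm38 as all gene positions) encodes the receptor of FLT3 ligand, the growth factor on which dendritic cell development depends. Its level was 3.20, 4.18, 1.25, 0.324 and 3.96 CPM in KO replicates 1 to 5 and 1.75, 0.263, 0.915, 0.529 and 2.19 CPM in NTC replicates 1 to 5. KO replicates 1, 2 and 5 stood above every NTC tumor, but KO replicate 4 lay below all NTC tumors but replicate 2. KO against NTC came to a log2 fold change of 1.22 (SE 0.71, edgeR adjusted p = 0.648) and 1.36 without NTC replicate 1 (adjusted p = 0.333).

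Zbtb46 (chr2:181387762-181459426) encodes a transcription factor of conventional dendritic cells that endothelial cells also use. It had the smallest spread of the 10 genes, with 12.3, 11.4, 9.16, 9.08 and 7.21 CPM in KO and 7.005, 7.85, 9.28, 6.95 and 9.16 CPM in NTC tumors. KO replicates 1 and 2 were above all NTC tumors and KO replicate 5 lay within their range. Its log2 fold change was 0.29 (SE 0.17, adjusted p = 0.665) and 0.21 without NTC replicate 1.

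Clec9a (chr6:129408862-129424763), the receptor with which type 1 cells sense dead cells through exposed actin, had the largest fold change of the set in the fit of 10 tumors. The level was 5.78, 14.6, 3.97, 2.56 and 11.6 CPM in KO tumors and 2.83, 0.722, 1.39, 0.976 and 4.58 CPM in NTC tumors. KO replicates 1, 2 and 5 were above every NTC tumor, and NTC replicates 2, 3 and 4 were below every KO tumor, so the groups overlapped only through KO replicates 3 and 4 and NTC replicates 1 and 5. Means were 7.71 ± 5.18 CPM (SD, n = 5) in KO and 2.10 ± 1.61 CPM (SD, n = 5) in NTC. The log2 fold change was 1.89 (SE 0.62), with an edgeR p of 0.0116 that did not pass adjustment over all genes (adjusted p = 0.379). It was 1.96 without NTC replicate 1 (edgeR adjusted p = 0.184). In the annotation Clec9a shares 184 exonic bases with Clec1b on the same strand. Reads set aside as ambiguous in the counting made up 0.757% to 2.54% per tumor. Whether these include reads on the shared bases is not given in the sources used here.

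Xcr1 (chr9:123852315-123862029) encodes the receptor for XCL1, a chemokine that NK and CD8 T cells release and that draws type 1 cells to them. Its level was 2.21, 10.1, 1.95, 3.03 and 10.1 CPM in KO and 4.04, 0.722, 5.24, 0.854 and 8.33 CPM in NTC tumors. Both groups held high and low tumors, and 3 KO tumors lay below NTC replicates 1, 3 and 5. Xcr1 thus had a log2 fold change of 0.52 (SE 0.74, adjusted p = 0.861) and of 0.50 without NTC replicate 1. Leaving out each tumor in turn gave 0.17 (without KO replicate 5 or 2) to 1.03 (without NTC replicate 5).

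Both surface markers are taken to mark type 1 cells, and whether their fold changes differ was not tested. The ratio of Xcr1 to Clec9a counts, compared between tumors and not read as relative level since exon lengths differ, was 0.383, 0.694, 0.492, 1.18 and 0.874 in KO tumors and 1.43, 1.00, 3.77, 0.875 and 1.82 in NTC tumors. Only KO replicate 4 had a higher ratio than an NTC tumor, and the medians were 0.694 and 1.43. This ratio was singled out after the values were seen, 1 of 3 pairs of genes looked at, and carries no test. In the other 2 pairs, Irf4 to Irf8 and Siglech to Flt3, the groups overlapped widely.

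**Figure D3:**
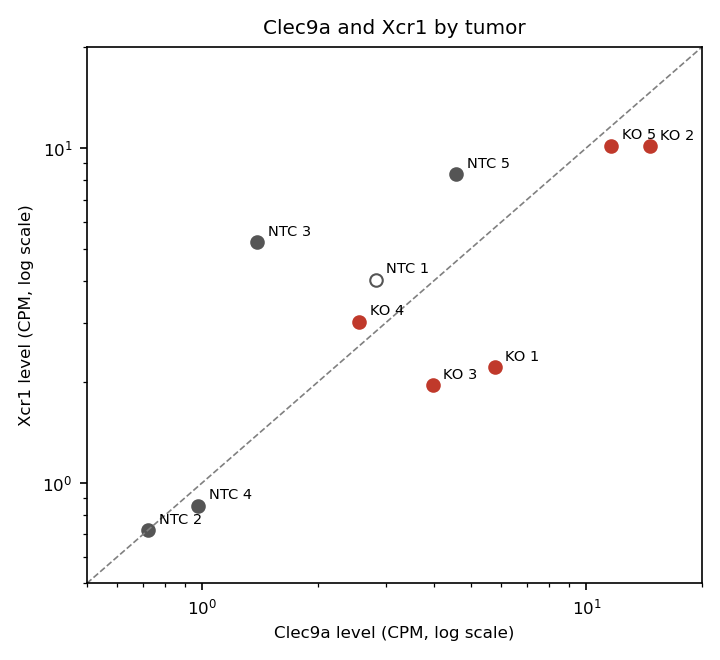
Xcr1 level against Clec9a level by tumor, both in CPM on log axes, with KO tumors in red, NTC tumors in grey and NTC replicate 1 open. On the dashed line both CPM values are equal, which is not an equal level per kb. KO replicates 1, 2, 3 and 5 lie under the line, and NTC replicates 1, 3 and 5 above it, while KO replicate 4 lies above it, NTC replicate 4 under it and NTC replicate 2 on it.

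Batf3 (chr1:191097847-191108945), the transcription factor without which type 1 cells fail to develop, had 4.43, 6.91, 2.43, 2.27 and 7.92 CPM in KO and 2.42, 1.61, 2.46, 1.02 and 4.44 CPM in NTC tumors. KO replicates 2 and 5 were the only ones above all NTC tumors. Batf3 had a log2 fold change of 1.00 (SE 0.47, adjusted p = 0.587) and of 0.96 without NTC replicate 1. Irf8 (chr8:120736358-120756694), which acts with Batf3 and is also needed in monocytes, B cells and plasmacytoid cells, had 162, 243, 134, 88.0 and 282 CPM in KO and 173, 103, 136, 80.2 and 160 CPM in NTC tumors, with a log2 fold change of 0.48 (SE 0.32, adjusted p = 0.697) and of 0.56 without NTC replicate 1. The same 2 KO tumors were the highest for both transcription factors.

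Cd209a (chr8:3743397-3748984), a C-type lectin of type 2 and monocyte-derived cells, had 0.984, 1.71, 1.15, 0.901 and 1.69 CPM in KO and 2.83, 0.131, 1.48, 0.122 and 1.18 CPM in NTC tumors. NTC replicate 1 was the highest of all 10 tumors and NTC replicates 2 and 4, with 4 and 3 counts, were the lowest. The spread between NTC tumors was 97.6% of their mean and that between KO tumors 30.2%. For Cd209a the log2 fold change was 0.25 (SE 0.73, adjusted p = 0.938) and 0.77 without NTC replicate 1 (adjusted p = 0.528). Irf4 (chr13:30749226-30766976), the transcription factor of type 2 cells, had 5.54, 8.28, 3.64, 2.16 and 10.5 CPM in KO and 6.47, 0.985, 3.38, 2.24 and 5.34 CPM in NTC tumors. Its log2 fold change was 0.73 (SE 0.54, adjusted p = 0.726) and 0.97 without NTC replicate 1.

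Siglech (chr7:55768178-55778925), a sialic acid-binding receptor of mouse plasmacytoid cells that some macrophages also carry, had 0.779, 1.29, 0.707, 1.12 and 1.33 CPM in KO and 1.75, 0.164, 0.252, 0.203 and 0.486 CPM in NTC tumors. Each KO tumor was above NTC replicates 2 to 5, which 2.71% of all genes showed, yet NTC replicate 1, with 13 counts, was the highest of the 10. Per 1000000 counts without the TMM factor it had 1.09, below 1.30, 1.29 and 1.21 in KO replicates 2, 5 and 4, and above KO replicates 1 and 3. On the unscaled counts Fscn1 in NTC replicate 1 was 11.9, below 16.8 in KO replicate 5, while Cd209a was still highest, at 1.77. By edgeR the log2 fold change was 1.09 over 10 tumors (SE 0.62, adjusted p = 0.643) and 1.87 without that tumor (SE 0.40, adjusted p = 0.102). Groups stood clear of each other, in either direction, in 0 of the 10 genes over 10 tumors, beside 2.34% of all genes, and in Siglech alone without NTC replicate 1, beside 6.3% of all genes.

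Fscn1 (chr5:142960343-142973185) encodes fascin, which bundles actin in the processes of mature dendritic cells. The level was 10.0, 13.4, 10.7, 7.35 and 17.3 CPM in KO and 19.1, 4.83, 12.4, 12.2 and 9.09 CPM in NTC tumors, with wide overlap. Fscn1 had a log2 fold change of 0.04 (SE 0.34, adjusted p = 0.982) and of 0.25 without NTC replicate 1.

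Most other genes of mature dendritic cells that were looked at had larger fold changes than Fscn1, a difference that was not tested. Of 18 such genes, 17 had a log2 fold change above 0, with a median of 0.64, and none was called by edgeR. An unadjusted p under 0.05 was reached by 5, all higher in KO: Ccr7, Apol7c, Il12b, Ccl22 and Ccl17, the last 3 named after their values were seen. Of all genes tested, 3.99% had an unadjusted p under 0.05 and were higher in KO. Without NTC replicate 1 the number was 12 of 18, beside 12.0% of all genes, and the median was 1.14. The pan-leukocyte genes had 10 of 10 above 0, with a median of 0.72 (1.26 without NTC replicate 1), and the T cell markers 6 of 6, with a median of 1.20 (1.52 without it). The B cell markers had 1 of 2 tested above 0, with a median of -0.017 (0.74 without it), and the NK cell markers 1 of 3, with a median of -0.076 (0.55 without it). Of the T cell markers, Cd3g and Cd3d, chains of the T cell receptor complex, had log2 fold changes of 1.31 (edgeR adjusted p = 0.516) and 1.35 (adjusted p = 0.626). The part of T cells in the levels of the mature genes was not tested.

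Ccr7, the receptor that guides mature cells to lymph nodes, had 2.05, 5.39, 1.52, 0.685 and 3.51 CPM in KO and 0.674, 0.525, 0.631, 0.488 and 1.04 CPM in NTC tumors. Its log2 fold change was 1.96 (SE 0.52, adjusted p = 0.247 by edgeR), and 4 of 5 KO tumors were above every NTC tumor. Apol7c, an apolipoprotein L family gene of type 1 cells, had 14.97, 16.4, 3.74, 1.48 and 19.9 CPM in KO and 4.31, 1.15, 1.26, 1.505 and 2.19 CPM in NTC tumors. Its log2 fold change was 2.50 (SE 0.68, adjusted p = 0.270).

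Il12b, the p40 chain of interleukin 12, had a log2 fold change of 2.19, with 0.613 to 3.87 CPM in KO and 0.126 to 1.01 CPM in NTC tumors. For Ccl22 and Ccl17, ligands of CCR4, the log2 fold changes were 2.07 and 2.20. In each of these 3 genes 4 of 5 KO tumors were above every NTC tumor. The adjusted p-values of the 3 ran from 0.367 to 0.505 by edgeR.

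**Figure D4:**
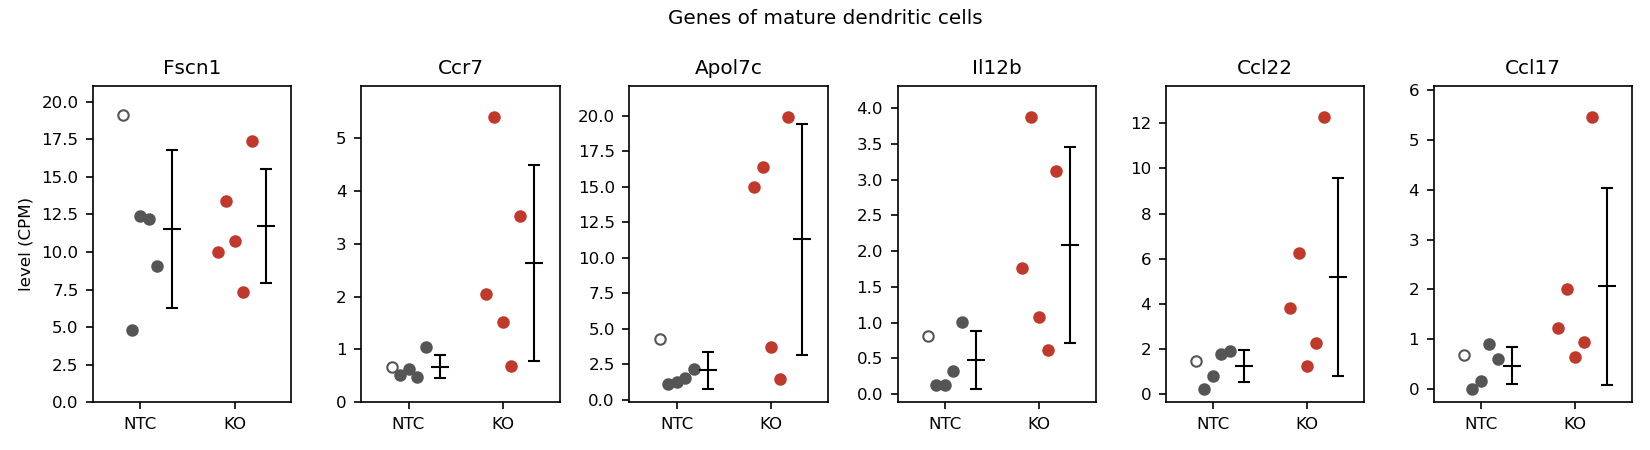
Levels of Fscn1 and of the 5 genes of mature dendritic cells with an unadjusted p under 0.05, in CPM on linear axes, 1 point per tumor, with the mean and SD over 5 tumors beside each group. Grey is NTC, red is KO and the open circle is NTC replicate 1. The KO range of Fscn1 lies within its NTC range, and in Ccr7 4 of 5 KO tumors are above every NTC tumor.

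Among other type 1 genes, 7 of 9 tested had a log2 fold change above 0, with a median of 0.28. Without NTC replicate 1 the median was 1.02, and 3 of 9, of which 2 were higher in KO, had an unadjusted p under 0.05 instead of 1. Over all genes that share was 20.1% without this tumor and 8.85% with it, against which these counts and those of the next lists are read. Wdfy4, needed for cross-presentation, had 19.9 to 93.7 CPM in KO and 11.3 to 65.5 CPM in NTC tumors (log2 fold change 0.86, adjusted p = 0.705). Tlr3, a sensor of double-stranded RNA that melanoma and stromal cells may also express, was the only one with an unadjusted p under 0.05 over 10 tumors and had the opposite sign, with 31.0 to 44.3 CPM in KO and 43.3 to 50.9 CPM in NTC tumors (log2 fold change -0.35, adjusted p = 0.334). Among other type 2 genes 6 of 7 lay above 0, with a median of 0.54, and 7 of 7 without NTC replicate 1, with a median of 1.07 and 4 under an unadjusted p of 0.05 instead of 1. Sirpa, an inhibitory receptor shared with macrophages, had a log2 fold change of 0.88 (adjusted p = 0.559), and Notch2, whose signal type 2 cells need, one of 0.78 (adjusted p = 0.567).

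Of plasmacytoid genes other than Siglech, 6 of 9 lay above 0, with a median of 0.47. Without NTC replicate 1 it was 7 of 9, with a median of 1.38, and 5, of which 4 were higher in KO, had an unadjusted p under 0.05 instead of 2, of which 1 was higher. Ly6d, which marks lymphoid precursors of these cells and also keratinocytes, had 0.984, 1.18, 1.25, 1.01 and 0.445 CPM in KO and 0.135, 0.0657, 0.252, 0 and 0.382 CPM in NTC tumors. All 5 KO tumors were thus above all 5 NTC tumors, NTC replicate 1 included, a separation that 0.866% of all genes showed in this direction. Its log2 fold change was 2.46 (SE 0.67, adjusted p = 0.255 by edgeR), from 0 to 37 counts per tumor. Pacsin1, an adaptor for interferon production in plasmacytoid cells, had a log2 fold change of -0.56 (adjusted p = 0.429).

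Genes of dendritic cell growth and recruitment had 10 of 10 tested above 0, with a median of 0.72 and of 1.00 without NTC replicate 1. Kit, a receptor of progenitors and mast cells that melanocytes also carry, had 7.83 to 12.1 CPM in KO and 5.06 to 7.77 CPM in NTC tumors, without overlap in a direction that 0.866% of all genes showed (log2 fold change 0.61, adjusted p = 0.298). Itgax, the integrin CD11c, had 33.1 to 90.7 CPM in KO and 13.3 to 46.6 CPM in NTC tumors (log2 fold change 1.11, adjusted p = 0.405). Its level in 3 of 5 KO tumors was above every NTC tumor.

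Most of the 10 genes had much the same order of tumors. KO replicate 2 was among the 3 highest tumors for all 10 genes and KO replicate 5 for 9 of them, while NTC replicate 2 was the lowest for 6 and NTC replicate 4 for 4. NTC replicate 1 broke this order, as the highest tumor for 3 genes and among the 3 highest for 5. White blood cells were followed by a pan-leukocyte score, averaged on the log2 CPM scale over 10 genes that most of them express. Over 10 tumors, whose points share library and depth, its Pearson r with the log2 level was 0.94 for Irf4, 0.93 for Irf8, 0.89 for Flt3 and 0.71 to 0.86 for Clec9a, Xcr1, Batf3, Cd209a, Siglech and Fscn1. Zbtb46 was apart, with r = 0.22. The summed level of the 10 leukocyte genes was 801 to 2998 CPM in KO tumors, 524 to 1175 CPM in NTC replicates 2 to 5 and 2396 CPM in NTC replicate 1, and 12 of 12 macrophage and monocyte markers had a log2 fold change above 0, with a median of 0.97. That median was 1.62 without NTC replicate 1, and 11 of 12 had an unadjusted p under 0.05 instead of 0, beside 20.1% and 8.85% of all genes.

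**Figure D5:**
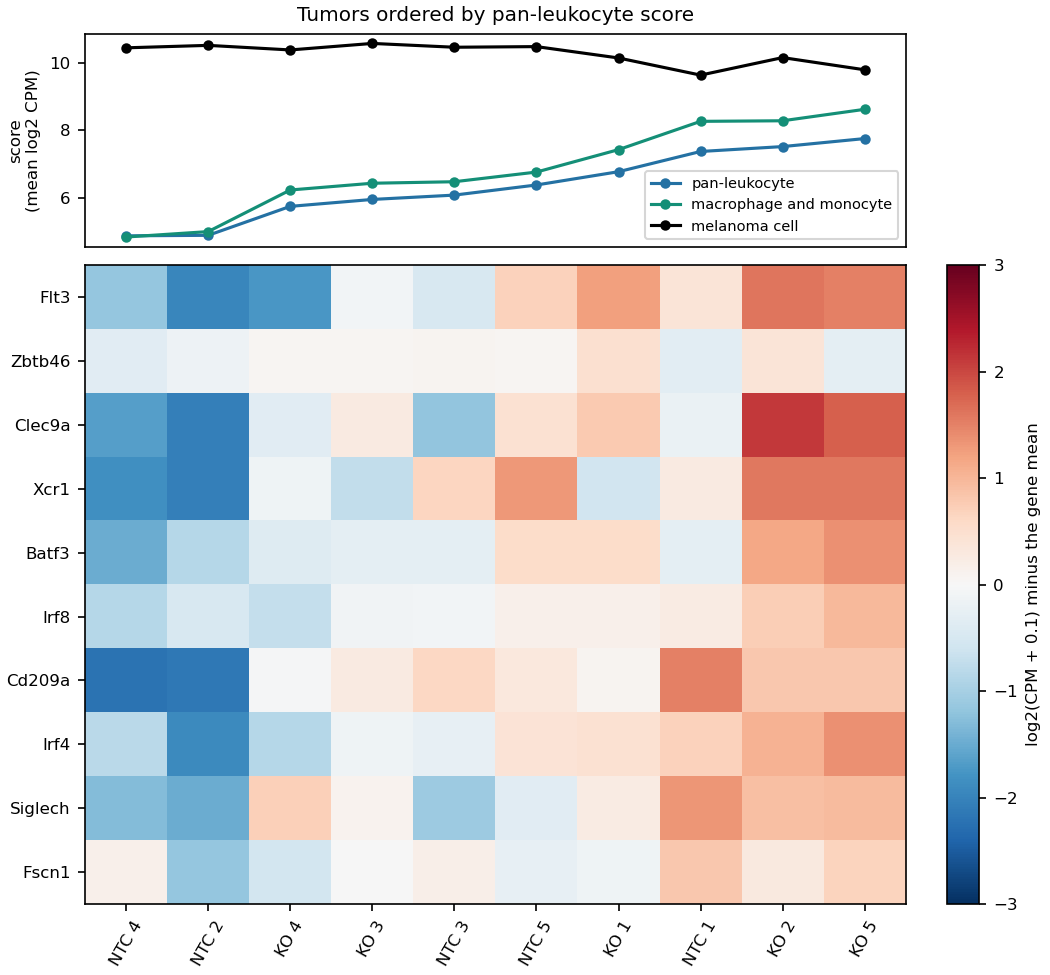
Upper panel: pan-leukocyte, macrophage and monocyte, and melanoma cell scores, as mean log2 CPM, with the tumors ordered by the first. Lower panel: log2(CPM + 0.1) of each gene minus its mean over the 10 tumors, from blue (low) to red (high). Apart from Zbtb46, which stays near its mean, the genes go from blue in NTC replicates 2 and 4 towards red in KO replicates 2 and 5, except Fscn1 in NTC replicate 4.

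With the leukocyte score as a covariate in edgeR, 5 of the 10 fold changes lay above 0, beside 51.9% of all genes, the median was 0.05, and 0 of 10 were called beside 0.0632% of all genes. The log2 fold change of Clec9a was 0.94 (SE 0.35, adjusted p = 0.284), down from 1.89, and that of Siglech 0.76 (SE 0.45, adjusted p = 0.523), down from 1.09. Xcr1 went to -0.48, Fscn1 to -0.31, Cd209a to -0.14, Irf4 to -0.039 and Irf8 to -0.033. A macrophage and monocyte score in its place also gave 0 of 10 called, beside 0.0695% of all genes. With the leukocyte score and without NTC replicate 1, a fit chosen after the data were seen, 0 of 10 were called beside 0.0746% of all genes, and Siglech had 1.46 (adjusted p = 0.262) and Clec9a 0.59 (adjusted p = 0.663).

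Levels were also set against the summed CPM of the 10 leukocyte genes, which include Arhgdib, level over the tumors at 205 to 271 CPM. Per 1000 CPM of that sum, Clec9a was 3.19 to 5.70 CPM in KO and 1.18 to 3.90 CPM in NTC tumors, with a ratio of means of 2.16, and of 1.91 with Arhgdib left out of the sum. Siglech was 0.445 to 1.39 in KO tumors, 0.256 to 0.413 in NTC replicates 2 to 5 and 0.731 in NTC replicate 1. With Arhgdib left out, an alternative added after the values were seen, Siglech was 0.489 to 1.90 in KO tumors and 0.335 to 0.636 in NTC replicates 2 to 5, so that these groups overlapped. The ratio of means was 1.12 for Batf3, 0.862 for Xcr1, 0.796 for Irf8 and 0.635 for Fscn1, and 0.974, 0.793, 0.683 and 0.548 with Arhgdib left out. These ratios carry no test.

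For each member, the genes whose log2 levels followed it most closely were sought over the 10 tumors. Batf3 had its highest r with Pdcd1, which encodes PD-1 (0.99), and then with Cst7 (0.98), a protease inhibitor of cytotoxic cells. For Flt3 they were Sytl3 (0.99) and Fasl (0.97), for Irf4 Gimap3 (0.99) and Madd (0.98), and for Xcr1 Klra17 (0.95), Cd96 (0.94) and Itgae (0.93). Irf8 went with H2-D1 (0.99), a class I antigen-presenting molecule, Il18bp (0.99) and the chemokine Ccl5 (0.98). Clec9a was closest to Cd22, Slc41a3 and Dnase1l3, each with r of 0.98. For Cd209a they were Cox4i2 (0.99) and Hlx (0.98), and for Siglech Padi2 (0.97) and Fam124a (0.95). The closest gene to Fscn1 was Strip2 (0.95) and to Zbtb46 Armcx5 (0.91). With 10 tumors and 15821 genes searched, such values are a description.

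The promoters of the members were read in RefSeq, 250 bases before to 50 after each start site on GRCm38.p6, and gave 11 promoters for the 10 genes, of 32851 searched. Both strands were searched for 4 motifs, chosen with results of these data known. The interferon response element, GAAA and GAAA with 2 bases of any kind between them, was found in 0 of the 11, beside 3.44% of all promoters. The gamma-activated site TTCNNNGAA, which STAT factors downstream of cytokine receptors bind, was found in 3 of 11, beside 8.30%. The ETS-IRF composite element, GGAA and GAAA with 2 bases of any kind between them, a form read by IRF4 and IRF8 with a partner, was found in 1 of 11, beside 2.72%, and the AP-1 element TGANTCA, the class to which BATF factors bind, in 1 of 11, beside 7.81%. Stretches with the matches follow, on the gene's strand, with the match in capitals. They are shown since Irf8, Irf4 and Batf3 are themselves such factors, and a match is a description of letters, not of binding.
Irf8, chr8:120736177-120736206: caaaagtgatTTCTCGGAAagagagcgctt
Irf8, chr8:120736195-120736224: aagagagcgcTTCAGAGAAggcggatttgg
Batf3, chr1:191098165-191098194: gccacgtgacTTCCACGAAgagcgggggcc
Siglech, chr7:55768051-55768080: acagcctttaTTCTCTGAAccacacccaca
Cd209a, chr8:3748974-3749003: cacttctcaaTTTCTCTTCCtaagtaagat
Zbtb46, chr2:181424431-181424460: gccatttacctTGACTCAtttcacagcaaa
The first 4 hold the gamma-activated site, Cd209a the ETS-IRF element on its other strand, and Zbtb46 the AP-1 element. Cd209a and Zbtb46 lie on the minus strand and the others on the plus strand. The start sites used for Zbtb46 and Batf3 lie inside the gene spans given above, so promoters at the upstream ends of those spans were not searched.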

How the data were processed

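RNA from 10 tumors was sequenced. According to the submitters' processing notes, reads were checked with FastQC, trimmed with Trimmomatic, aligned to mm10 with HISAT2 and counted with HTSeq. The authors deposited raw counts per gene, without normalization. Annotation and strand setting are not given in the sources used here. Labels and methods differ in the number of injected cells, which is not reported.

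KO and NTC were compared with edgeR 4.0.16 (quasi-likelihood, TMM, filterByExpr) in R 4.3.3, with Benjamini-Hochberg adjustment over all genes tested. CPM used TMM factors and log2 CPM a prior count of 2. Standard errors were derived from the F statistic. Exon lengths came from GENCODE M21. DESeq2 1.42.0, other normalizations and filters, covariates and each tumor left out were alternatives. The edgeR and DESeq2 fits of KO against NTC over 10 tumors were tested on simulated data, and the other fits were not.

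Members and lists were chosen with earlier results of these data known. All members are named, and of each list of dendritic cell genes the 2 with the lowest p and any called. Genes of lists for other cell types are named only beside a member's result. For likeness, the rule takes the 3 genes with the highest r per member. For most members not all 3 are printed, and those printed have the highest r. Labels number the tumors as replicates, and p-values set the difference between groups against the spread between these replicates.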

Additional observations from a re-analysis of the deposited data

Results flagged for a closer look

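In groups of 5 tumors, a value was taken to stand far from the rest where its gap to the nearest other tumor was over 0.71 of the group's range. Of 46 groups looked at, the 10 genes on both the log2 CPM and the CPM scale and 3 scores, 2 held such a value, where chance gives about 1 in 20. The melanoma cell score of NTC replicate 1 was a mean log2 CPM of 9.63 against 10.44 to 10.51 in NTC replicates 2 to 5. Siglech in NTC replicate 1 was 1.75 CPM against 0.164 to 0.486 CPM in NTC replicates 2 to 5, a gap of 0.797 of the range, and did not pass on the log2 scale. The CPM scale was added after the values were seen.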

How the results depend on the processing

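Of 207 alternative values of the 10 log2 fold changes, 183 kept direction and stayed uncalled, 22 changed sign and 2 became calls. The calls were Siglech (1.91) and Clec9a (2.01) by DESeq2 without NTC replicate 1, chosen after seeing the data, with 2 dendritic cell genes called. Some of the 183 crossed an absolute log2 fold change of 1, such as Clec9a at 0.94 with the pan-leukocyte score and Batf3 at 1.36 without NTC replicate 5. The settings without a fold threshold and with robust dispersion have the fold changes of the main fit and could not change sign. With the pan-leukocyte score as covariate Xcr1 was -0.48, Irf8 -0.033, Cd209a -0.14, Irf4 -0.039 and Fscn1 -0.31. With the macrophage score they were -0.59, -0.056, -0.23, -0.086 and -0.33. With the leukocyte score and without NTC replicate 1, also chosen after seeing the data, Flt3 was -0.26, Xcr1 -0.92, Batf3 -0.16, Irf8 -0.24, Irf4 -0.20 and Fscn1 -0.18. Leaving out 1 tumor, Fscn1 ran from -0.16 (without NTC replicate 2) to 0.25, with -0.012 without KO replicate 2, -0.14 without KO replicate 5 and -0.035 without NTC replicate 5. Cd209a ran from -0.061 (without NTC replicate 4; -0.060 without NTC replicate 2) to 0.77. Clec9a ran from 1.52 to 2.45, Siglech from 0.83 to 1.87, Flt3 from 0.95 to 1.67, Zbtb46 from 0.19 to 0.38, Xcr1 from 0.17 to 1.03, Batf3 from 0.74 to 1.36, Irf8 from 0.27 to 0.65 and Irf4 from 0.44 to 0.97. The cause was not tested. No dendritic cell gene was called in any fit that left out 1 tumor by edgeR.

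Over all genes, edgeR called 1 higher and 2 lower in KO, DESeq2 24 and 72, a minimum of 10 counts in every tumor 0 and 6 (Flt3, Cd209a and Siglech drop out), no fold threshold 4 lower, robust dispersion 4 lower, the leukocyte covariate 4 and 6, the macrophage covariate 4 and 7, and each tumor left out 1 to 2 higher and 0 to 15 lower. Without NTC replicate 1, DESeq2 called 530 and 111 and the leukocyte covariate 5 and 7. With the replicate number as a block, 1 gene was called higher and 0 lower, and 0 of the 10 dendritic cell genes. Deviations of same-numbered tumors correlated at -0.29 to 0.63, and 2 of 5 numbers correlated best with their own. With so few numbers, whether they pair the tumors cannot be told from these values.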
